A study of Mus musculus with 5 samples.

Results

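The cells described here come from 2 plates of single mouse organoid cells: the Lkb1 -/- small intestinal organoids whose title carries the mark Cys, and fetal intestinal organoids of wild-type genotype. Spike-in rows were dropped, and a well counted as a cell when it held at least 1000 and at most 100000 unique molecular identifiers (UMIs, random tags that let each captured transcript be counted once). That rule left 357 Cys cells and 371 fetal cells, 728 of the 1699 cells of the whole series. In the Cys plate the kept wells held 1092 to 47777 UMIs, while the nearest wells left out held 960 UMIs below the lower limit and 147615 UMIs above the upper one. The comparison asks what the Cys state shares with the fetal state and what it does not.

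The series comprises 5 libraries of mouse gut epithelium grown as organoids, each made from 1 plate of 384 wells. The method, SORT-seq, sorts single cells into wells with barcoded primers and reads only the 3' end of transcripts. The groups are Cys (Lkb1 -/-, small intestine), fetal (wild-type genotype, fetal intestine), Bud (Lkb1 -/-, small intestine), het (Lkb1 +/-, small intestine) and WT (wild-type genotype, small intestine). The labels give 1 growth protocol, worded for small intestinal organoids, with Egf, R-spondin and Noggin in the medium, and the design text calls the small intestinal organoids genetically edited. The labels do not explain the marks Cys and Bud, and they do not give the gestational age of the fetal tissue, the editing method or whether a line is 1 clone. Each group is therefore 1 library with no replicate, and genotype, culture and plate cannot be told apart. No p-value is given, and the bracketed 95% intervals cover counting error only.

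LKB1, the product of the gene Stk11, is a protein kinase that activates AMPK and related kinases and links nutrient state to growth and cell polarity. Adult small intestinal organoids form crypts with Lgr5 stem cells and give rise to absorptive enterocytes and secretory cells. Organoids from the fetal mouse intestine instead keep an immature epithelium with little Lgr5 and high levels of genes such as Ly6a, Anxa1 and Clu. The adult epithelium takes on part of this program after injury, when the transcriptional co-activators YAP and TAZ, which act through TEAD factors, are switched on. Mucus-producing pit cells of the stomach are marked by the trefoil peptide gene Tff1 and the gastrokine genes Gkn1 and Gkn2.

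The kept wells held 4381530 UMIs in the Cys library and 5865507 UMIs in the fetal library, and between 4035219 and 4395349 UMIs in WT, het and Bud. Per cell, the median was 10375 UMIs from 3416 genes in Cys, against 14637 UMIs from 4538 genes in fetal. Wells with over 2% of their UMIs from Kcnq1ot1, a nuclear transcript used as a sign of poor cell quality, made up 6.16% of Cys cells and 0.539% of fetal cells. The ribosomal RNA feature Rn45s took 7.09% of Cys UMIs and 2.71% of fetal UMIs. The part of these differences in the results was not tested beyond the alternatives given at the end. All 384 well codes occur in every table, since each plate uses the same set. Carry-over between plates can be read from sex-linked genes: 4 Y-linked genes had 663 UMIs in Cys and 0 UMIs in fetal, while Xist had 2 UMIs in Cys and 1501 UMIs in fetal, so the sex of the source animal differs between these 2 plates as well.

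Stk11 itself was at 7.53 CPM (UMIs of the gene per 1000000 UMIs of the library) in Cys and 11.7 CPM in Bud, against 14.1 CPM in het, 20.6 CPM in WT and 16.0 CPM in fetal. The Cys level rests on 33 UMIs. The labels do not say which part of the gene was removed, and the reads come from the 3' end, so these levels are no check of the genotype. Both libraries were epithelial: none of the 8 genes common to all epithelia, Epcam and Cdh1 among them, was higher or lower between them, and the list summed to 6850 CPM in Cys and 6182 CPM in fetal. The intestinal label was less plain. Cdx2, the factor that sets intestinal identity, was at 8.45 CPM in Cys and 5.80 CPM in fetal, against 41.7 CPM in Bud, 36.2 CPM in het and 44.4 CPM in WT. Gata4, a factor of the proximal intestine, had no UMI in the fetal library and was at 38.6 CPM in Cys.

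A gene was called higher or lower when its CPM ratio was at least 2 in that direction with an interval that excluded 1, among genes with at least 20 UMIs over both libraries. Between Cys and fetal, 11428 genes were measured, of which 1013 were higher in Cys (8.86%), 2093 were lower in Cys (18.3%) and 8322 were neither. The median log2 ratio over all measured genes was -0.13 (10 CPM added to both levels before the log, as in every log2 value here). Higher genes made up 32.6% of the called genes. Scaling by the trimmed mean of M values (TMM) in place of library totals put the median at -0.02 and gave 1324 higher and 1766 lower genes, of which 42.8% were higher. Calls close to the threshold are therefore relative to the scaling.

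To ask what the libraries share, each was set against its own adult library, so that the 2 comparisons had no library in common: Cys against het, and fetal against WT. In Cys against het, 1309 of 11044 genes were higher (11.9%) and 1488 were lower (13.5%). In fetal against WT, 2458 of 11679 genes were higher (21.0%) and 1758 were lower (15.1%). Among the 10764 genes measured in both, 797 were higher in both, which is 65.1% of the genes higher in Cys against het and 45.1% of those higher in fetal against WT, where 16.4% and 11.4% of all these genes were called higher in fetal and in Cys. In the other direction 757 genes were lower in both, 54.9% of the 1378 lower in Cys and 44.4% of the 1704 lower in fetal. Over all these genes, 15.8% were lower in fetal and 12.8% in Cys. Only 60 genes were higher in Cys and lower in fetal, and 96 were lower in Cys and higher in fetal. Of the 797 genes higher in both, 462 did not differ by the rule between Cys and fetal, 82 were higher in Cys and 253 were lower in Cys.

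**Figure D1:**
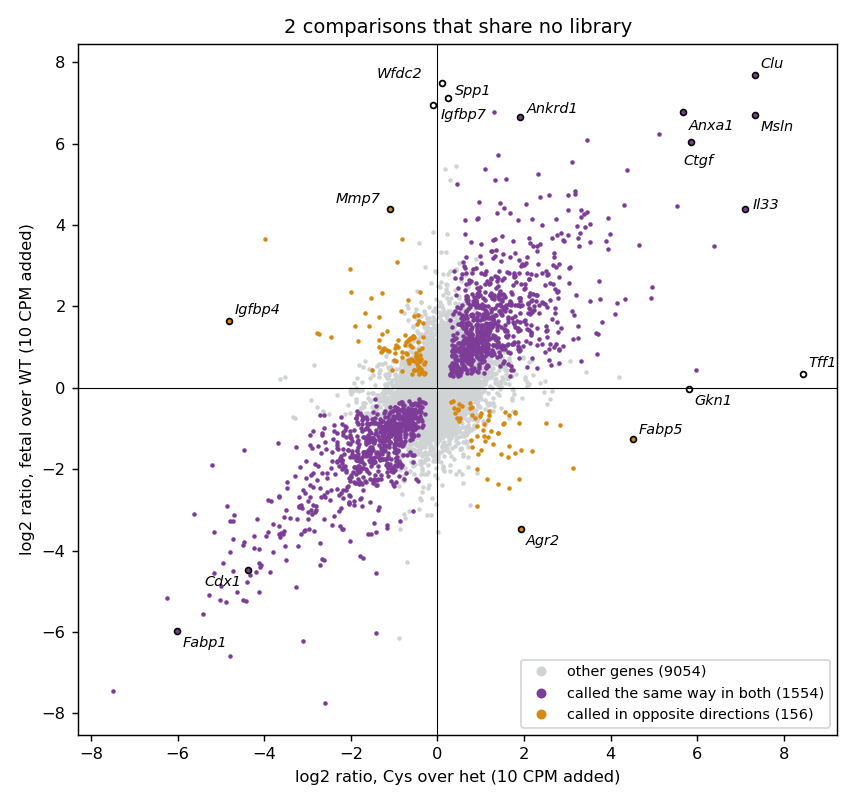
Each filled point is a gene measured in both comparisons, and open circles mark labelled genes. The horizontal axis is the log2 ratio of Cys over het, the vertical axis that of fetal over WT, each with 10 CPM added. Tff1, Gkn1, Wfdc2, Spp1 and Igfbp7 were not measured in both comparisons and are drawn as open circles only. Genes called the same way in both (purple) run along the diagonal from Fabp1 to Clu, while Tff1 and Gkn1 lie on the right near 0 on the fetal axis and Wfdc2, Spp1 and Igfbp7 lie at the top near 0 on the Cys axis.

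Several genes of the fetal and regenerative list were among those most raised in both libraries. Clu, a secreted chaperone that marks reviving stem cells of the injured mouse intestine, was at 3388 CPM in Cys (3334 to 3443) and 4158 CPM in fetal (4106 to 4210), against 11.7 CPM in Bud, 11.2 CPM in het and 10.4 CPM in WT. Both libraries stood far above all 3 adult ones and within 1.23-fold of each other. Msln, which encodes the surface glycoprotein mesothelin, was at 1822 CPM in Cys and 1032 CPM in fetal, while it had 0 CPM in Bud, 1.36 CPM in het and 0 CPM in WT. S100a6, a calcium-binding protein, was at 2821 CPM in Cys and 2460 CPM in fetal, and its relative S100a11 was at 3469 CPM in Cys and 4333 CPM in fetal. Bud lay between these and the other adult libraries for both, with 378 CPM of S100a6 and 772 CPM of S100a11, against 134 and 290 CPM in het and 99.1 and 350 CPM in WT. The other genes with the largest joint difference from het and WT, of which Basp1 alone is on that list among those given here, included Ctgf (727 CPM in Cys and 796 CPM in fetal), Basp1 (223 and 411 CPM), Ptrf, which encodes the caveolar coat protein cavin-1 (147 and 290 CPM), and the basement membrane collagen Col4a2 (139 and 111 CPM). Col4a2 had no UMI in Bud, het or WT.

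Over the whole fetal and regenerative list, chosen with earlier results of these data known, all 24 genes were measured between Cys and fetal: 3 were higher in Cys, 7 were lower and 14 were neither, and the median log2 ratio was -0.75 beside -0.13 over all genes. The shares over all genes were 8.86% higher and 18.3% lower in Cys. Against their adult libraries, 20 of 23 measured members were higher in Cys than in het and 22 of 23 were higher in fetal than in WT, and 18 of the 22 measured in both were higher in both. Of all genes, 11.9% were higher in Cys than in het, 21.0% in fetal than in WT, and 797 of 10764 in both. The 14 members that were neither included the hyaluronan receptor Cd44 (428 CPM in Cys and 537 CPM in fetal) and the keratin Krt7 (1456 CPM in Cys and 2318 CPM in fetal). Several lay near the limit of 2-fold. Anxa1, an annexin that limits inflammation, was at 1106 CPM in Cys and 1991 CPM in fetal, 1.80-fold lower in Cys (1.74 to 1.86), and with equal weight for each cell it passed the limit, with a log2 ratio of -1.02. Basp1 of this list did the same under that weighting, at -1.02.

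The 7 lower members lay below fetal to different degrees. Ly6a, the surface protein Sca-1, was at 502 CPM in Cys and 1557 CPM in fetal, against 17.4 CPM in Bud, 4.78 CPM in het and 10.9 CPM in WT. It was thus raised in both libraries, but 3.10-fold lower in Cys than in fetal (2.96 to 3.25). Spp1, which encodes the secreted matrix protein osteopontin, had 8 UMIs in Cys and 8068 UMIs in fetal, or 1.83 CPM and 1375 CPM, and none in Bud, het or WT. Sprr1a, a cornified envelope gene induced in injured epithelia, was at 13.7 CPM in Cys and 444.5 CPM in fetal, and Emp1, an epithelial membrane protein gene, was at 68.5 CPM in Cys and 467.5 CPM in fetal. Emp1 in Cys was close to het (63.9 CPM). Anxa3, Anxa5 and Cldn4 were 2.55-fold, 6.03-fold and 4.45-fold lower in Cys than in fetal.

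The 3 higher genes of that list went the other way. Il33, an alarm cytokine released by damaged epithelium, was at 1521 CPM in Cys (1485 to 1558) and 240 CPM in fetal (227 to 252), against 21.9 CPM in Bud, 1.14 CPM in het and 1.98 CPM in WT. It was raised in both and 6.35-fold higher in Cys. Ly6d, a surface protein of the same family as Ly6a, was at 215 CPM in Cys and 2.22 CPM in fetal, with at most 1.91 CPM in the adult libraries. Fabp5, a fatty acid carrier, was at 587 CPM in Cys and 13.0 CPM in fetal, against 120 CPM in Bud, 15.9 CPM in het and 45.1 CPM in WT, and was the 1 member lower in fetal than in WT.

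**Figure D2:**
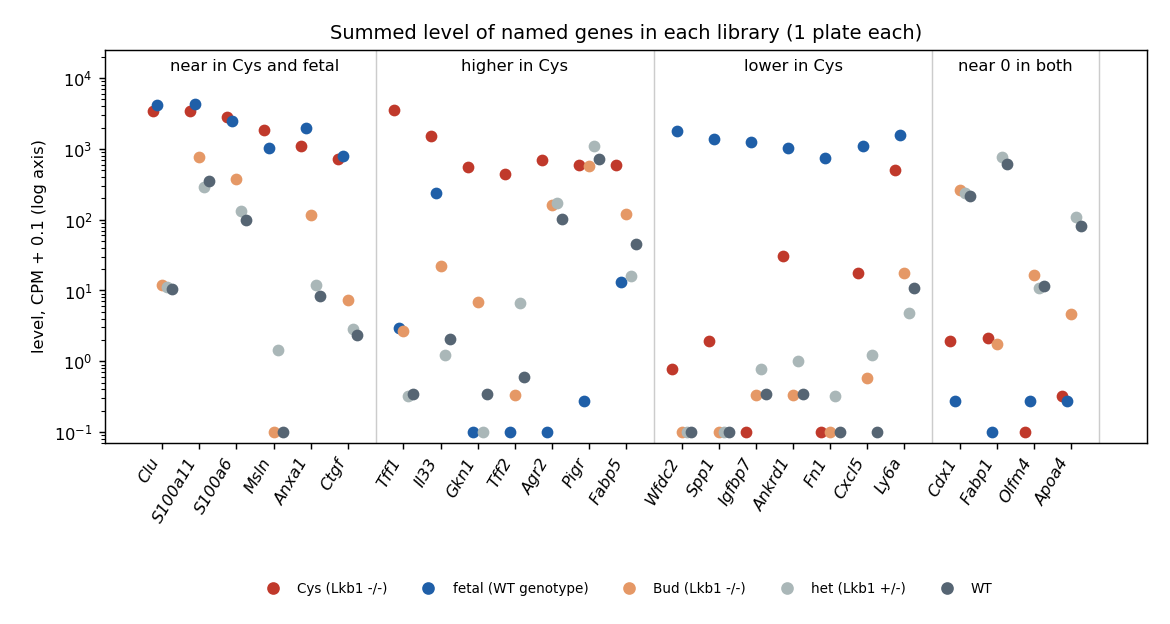
Level of named genes in each library, summed over the cells of 1 plate, in CPM with 0.1 added so that genes at 0 can be drawn on the log axis. Clu, S100a11, S100a6, Msln, Anxa1 and Ctgf are close in Cys (red) and fetal (blue) and far above the adult libraries; Wfdc2 and Spp1 are above 1000 CPM in fetal alone, and Tff1 is at 3526 CPM in Cys and 2.90 CPM in fetal.

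Targets of p53, the stress-activated tumour suppressor, were nearly level between the libraries. Of 23 measured members, 1 (Sesn2) was higher in Cys, 2 (Pmaip1 and Polk) were lower and 20 were neither, with a median log2 ratio of -0.05. For all genes the shares were 8.86% higher and 18.3% lower. Cdkn1a, the cell cycle inhibitor p21, was at 444 CPM in Cys and 551 CPM in fetal, against 159 CPM in Bud, 155 CPM in het and 188 CPM in WT. Ccng1 was at 566 CPM in Cys and 584 CPM in fetal, against 119 CPM in Bud, 74.2 CPM in het and 104 CPM in WT, and the death receptor gene Eda2r was at 69.2 CPM in Cys and 50.5 CPM in fetal, against 9.53 CPM in Bud, 4.1 CPM in het and 0.496 CPM in WT. Both libraries were therefore above all 3 adult ones for these genes. Set against their own adult libraries, 15 members were higher in Cys and 17 were higher in fetal, and 12 were higher in both. Of all genes, 11.9% were higher in Cys against het, 21.0% in fetal against WT, and 797 of 10764 in both.

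Markers of enterocytes and enteroendocrine cells were low in both libraries. Of 20 enterocyte genes measured in both adult comparisons, 18 were lower in both, and the list of 22 summed to 64.8 CPM in Cys and 70.1 CPM in fetal, against 1379 CPM in Bud, 7349 CPM in het and 3956 CPM in WT. Fabp1, the fatty acid carrier of enterocytes, had 2.05 CPM in Cys and 0 CPM in fetal, against 1.67 CPM in Bud, 772 CPM in het and 615 CPM in WT. Apoa4, a lipoprotein component, had 0.228 CPM in Cys and 0.171 CPM in fetal. Enteroendocrine markers summed to 2.28 CPM in Cys and 0.852 CPM in fetal, against 203 CPM in Bud, 626 CPM in het and 316 CPM in WT. The Cys and fetal sums are at the level of a few stray UMIs per marker. All 9 markers measured in both adult comparisons were lower in both. They reached 20 UMIs through the adult libraries, so this count is largely fixed by that minimum. Only 5 enterocyte genes reached 20 UMIs over Cys and fetal together, so the others also needed adult UMIs to be measured. Cdx1, the second caudal factor of the intestine, had 1.83 CPM in Cys and 0.171 CPM in fetal, against 262 CPM in Bud, 236 CPM in het and 215 CPM in WT. Other genes low in both included Ccl25, the chemokine of the small intestine (7.30 CPM in Cys and 7.5 CPM in fetal, against 491 to 544 CPM in the adult libraries), the adhesion protein gene Cdh17 (31.7 and 55.9 CPM, against 522 to 742 CPM) and the metabolic regulator Mlxipl (3.19 and 2.73 CPM, against 136 to 197 CPM).

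Stem cell genes were mixed, and 8.86% of all genes were higher in Cys than in fetal and 18.3% lower. Between Cys and fetal, 3 of 15 measured members were higher in Cys (Aqp4, Hopx and Prom1), 4 were lower (Axin2, Lgr5, Mex3a and Tnfrsf19) and 8 were neither, with a median log2 ratio of 0.09, and the list summed to 2931 CPM in Cys and 1745 CPM in fetal, against 3992 CPM in Bud, 3507 CPM in het and 3940 CPM in WT. Prom1, which encodes the membrane glycoprotein CD133, was the 1 member higher in both adult comparisons, with 1542 CPM in Cys and 561 CPM in fetal, against 375 CPM in Bud, 280.3 CPM in het and 260.0 CPM in WT. Of the intestinal stem cell list, 10 of 17 measured members were lower in both adult comparisons, beside 757 of 10764 genes. Lgr5, the receptor for R-spondins, was at 13.5 CPM in Cys and 102 CPM in fetal, against 310 CPM in Bud, 294 CPM in het and 278 CPM in WT. After thinning every cell to 3000 UMIs, 3.82% of Cys cells and 28.2% of fetal cells held an Lgr5 UMI, against 51.8% of WT cells (11.5%, 51.5% and 68.9% before thinning). Axin2, a feedback inhibitor of WNT signalling, was at 10.5 CPM in Cys and 30.0 CPM in fetal, while Olfm4 had 0 UMIs in Cys and 0.171 CPM in fetal. Hopx, a homeobox gene used as a marker of reserve stem cells, differed the other way, with 180 CPM in Cys and 30.2 CPM in fetal, against 478 to 541 CPM in the adult libraries.

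The clearest separation was in genes of the stomach lining, high in Cys and not in fetal. Of 22 listed genes, 15 were measured: 12 were higher in Cys, 2 (Muc1 and Pgc) were lower and 1 (Psca) was neither, with a median log2 ratio of 2.80. With genes at 0 placed at a floor of 3 UMIs the median was 4.02. The 3 measured genes at 0 in either library could only be called in 1 direction. Over all genes, 8.86% were higher in Cys. Tff1, the trefoil peptide of gastric pit cells, was at 3526 CPM in Cys (3471 to 3582) and 2.90 CPM in fetal (1.69 to 4.64), against 2.62 CPM in Bud, 0.228 CPM in het and 0.248 CPM in WT. Cys was 1217-fold higher than fetal (759.6 to 2089), and no other library reached 3 CPM. Gkn1, a gastrokine that protects the gastric mucosa, was at 553 CPM in Cys with no UMI in fetal. With the fetal library set to a floor of 3 UMIs, Gkn1 was 1081-fold higher in Cys. Bud had 6.67 CPM of Gkn1, het had 0 CPM and WT had 0.248 CPM. Tff2, the trefoil peptide of mucous neck cells, was at 448 CPM in Cys with no UMI in fetal, and Dpcr1, a mucin-like gene, was at 621 CPM in Cys and 3.58 CPM in fetal, with no UMI in Bud, het or WT.

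Part of the gastric list was raised in fetal cells too, at lower levels. Vsig1, a junction protein of the gastric epithelium, was at 328 CPM in Cys and 45.7 CPM in fetal, against 11.2 CPM in Bud, 0.910 CPM in het and 0 CPM in WT. Ctse, an aspartic protease of gastric surface cells, was at 199.5 CPM in Cys and 35.6 CPM in fetal, with under 1 CPM in each adult library. Aqp5, a water channel, was at 62.3 CPM in Cys and 17.7 CPM in fetal, and Psca, a surface antigen, was at 35.8 CPM in Cys and 39.4 CPM in fetal, while neither had a UMI in Bud, het or WT. For these 4 genes fetal stood above the adult libraries and below or level with Cys. Muc1, a membrane mucin of many glandular epithelia, ran against the rest of the list, with 2.74 CPM in Cys and 374 CPM in fetal, and none in the adult libraries. The mucin genes Muc5ac and Muc6, the junction gene Cldn18 and 4 others had too few UMIs in these libraries to be measured.

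The gastrokine genes lie close together on chromosome 6 and the trefoil genes on chromosome 17, and each of the 6 genes was higher in Cys than in fetal. Gkn1 spans chr6:87345650-87350942 and Gkn3 chr6:87383256-87388935, while Tff3, Tff2 and Tff1 span chr17:31125306-31129646, chr17:31141049-31144282 and chr17:31161395-31165277 (GRCm38, GENCODE M21 annotation, all on the minus strand). Gkn2 was at 70.1 CPM in Cys and 0.171 CPM in fetal, a single UMI, and Gkn3 was at 454 CPM in Cys and 3.07 CPM in fetal, against 32.9 to 42.8 CPM in the adult libraries. The 250 bases before the start of Gkn1 and of Gkn2 are shown because these genes had at most 1 UMI in fetal cells and hold a motif that was searched (RefSeq, GRCm38.p6, 5′ to 3′ on the gene's strand). Gkn1 is the window chr6:87350916-87351165 on the minus strand and Gkn2 the window chr6:87373115-87373364 on the plus strand. The RefSeq start of Gkn1 lies inside the GENCODE span given above, so the Gkn1 window overlaps that span. Capitals mark the letters AGATAA, the core that GATA factors prefer, searched on both strands.
Gkn1: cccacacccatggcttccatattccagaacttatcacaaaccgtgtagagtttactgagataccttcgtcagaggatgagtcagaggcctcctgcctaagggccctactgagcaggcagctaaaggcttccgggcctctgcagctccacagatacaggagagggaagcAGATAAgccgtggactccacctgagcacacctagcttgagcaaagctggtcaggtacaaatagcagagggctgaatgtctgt
Gkn2: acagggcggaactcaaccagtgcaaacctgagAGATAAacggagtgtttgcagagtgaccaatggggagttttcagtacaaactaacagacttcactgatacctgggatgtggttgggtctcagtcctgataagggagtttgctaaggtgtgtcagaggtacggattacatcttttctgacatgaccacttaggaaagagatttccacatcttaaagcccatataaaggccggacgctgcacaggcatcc
Of the 22 gastric genes, 17 had a promoter in the table, and 4 of them held these letters (23.5%), against 9.99% of all 32851 promoters of the same length. The other 2 were Muc6 and Cldn18, which were not measured here, and Cldn18 has 2 promoters in the table. Gkn3, Dpcr1, Vsig1, Anxa10, Aqp5, Sult1c2 and Sox21, all higher in Cys, held none. Of the GATA genes themselves, Gata5 was at 114 CPM in Cys and 8.52 CPM in fetal, against 37.9 to 50.2 CPM in the adult libraries, Gata4 was as given above and Gata6 was at 74.4 CPM in Cys and 73.6 CPM in fetal. The match is a description of the letters and not evidence of binding.

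Secretory genes accompanied the gastric ones. All 13 measured members of the goblet cell list were higher in Cys than in fetal, beside 8.86% of all genes. The median log2 ratio was 2.0, or 3.82 with genes at 0 placed at the floor. Of the 13, Agr2, Muc2 and Tff3 had no UMI in fetal, so they were measured through Cys alone and could only be called higher. Agr2, a disulfide isomerase needed for mucin folding, was at 688 CPM in Cys with no UMI in fetal, against 161 CPM in Bud, 174 CPM in het and 101 CPM in WT. Spdef, the transcription factor of secretory maturation, was at 92.2 CPM in Cys and 2.73 CPM in fetal, against 5.45 to 14.8 CPM in the adult libraries, and Ern2, a stress sensor of mucus-making cells, was at 117 CPM in Cys and 0.341 CPM in fetal. These genes exceeded the adult libraries, whereas the classical goblet products did not. Muc2, the intestinal gel mucin, was at 6.85 CPM in Cys with no UMI in fetal, against 117 CPM in Bud, 180 CPM in het and 70.1 CPM in WT. Fcgbp, a mucus protein, was at 20.3 CPM in Cys and 6.48 CPM in fetal, against 223 to 627 CPM in the adult libraries. Tff3, the trefoil peptide of goblet cells, was at 401 CPM in Cys with no UMI in fetal, but 20.5% of the Cys UMIs came from 1 cell. Against het, 8 of 17 goblet genes were higher in Cys and 9 were lower.

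Many genes of intestinal identity were higher in Cys than in fetal, and part of them were below the adult level in both. Of 18 measured, 11 were higher in Cys, 1 (Foxa2) was lower and 6 were neither, with a median log2 ratio of 0.89. Among all genes 8.86% were higher and 18.3% were lower. Of 21 measured against the adult libraries, 9 were lower in both (757 of 10764 over all genes), Cdx1, Cdx2, Hnf4a and Gata4 among them. Hnf4a, a master factor of the absorptive lineage, was at 138 CPM in Cys and 64.4 CPM in fetal, against 435 to 498 CPM in the adult libraries. Foxa1 and Foxa3, pioneer factors of secretory cells, were at 228 and 52.5 CPM in Cys and at 58.7 and 6.82 CPM in fetal. Outside that list, Pigr, the receptor that carries IgA across the epithelium, was at 590 CPM in Cys with a single UMI in fetal (0.171 CPM), against 567 CPM in Bud, 1100 CPM in het and 709 CPM in WT. Lgals2, a galectin, was at 418 CPM in Cys and 3.75 CPM in fetal, against 2587 to 3287 CPM in the adult libraries. Both were near 0 in fetal, while in Cys Pigr was within the adult range and Lgals2 was below it. Aldh1a1, which makes retinoic acid, was at 705 CPM in Cys and 16.2 CPM in fetal, and the chloride channel gene Cftr was at 296 CPM in Cys and 6.31 CPM in fetal, against 79.8 to 147 CPM in the adult libraries.

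Some genes of other epithelia or tissues were higher in Cys than in fetal. Tek, the angiopoietin receptor, best known from blood vessels, was at 337 CPM in Cys with no UMI in fetal, against 2.14 CPM in Bud, 1.59 CPM in het and 0 CPM in WT. A Tek UMI was present in 54.5% of Cys cells after thinning to 3000 UMIs, against none of the fetal cells (79.6% and 0% before thinning). The 10 endothelial markers summed to 352 CPM in Cys, nearly all of it Tek, and to 13.8 CPM in fetal. Krt4, a keratin of the mouse oesophagus and forestomach, was at 328 CPM in Cys and 37.3 CPM in fetal, against at most 2.14 CPM in the adult libraries. Krt23 was at 311 CPM in Cys and 5.12 CPM in fetal, against 61.5 to 77.6 CPM in the adult libraries. Over the list of stratified and squamous epithelium there was no common direction: of 6 measured members 3 were higher in Cys (Krt23, Krt4 and Lor) and 3 were lower (Ivl, Sfn and Sprr3), with a median log2 ratio of 0.17. Sfn, an adaptor protein gene, was at 25.3 CPM in Cys and 65.3 CPM in fetal, against 65.7 CPM in Bud, 31.9 CPM in het and 32.2 CPM in WT.

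**Figure D3:**
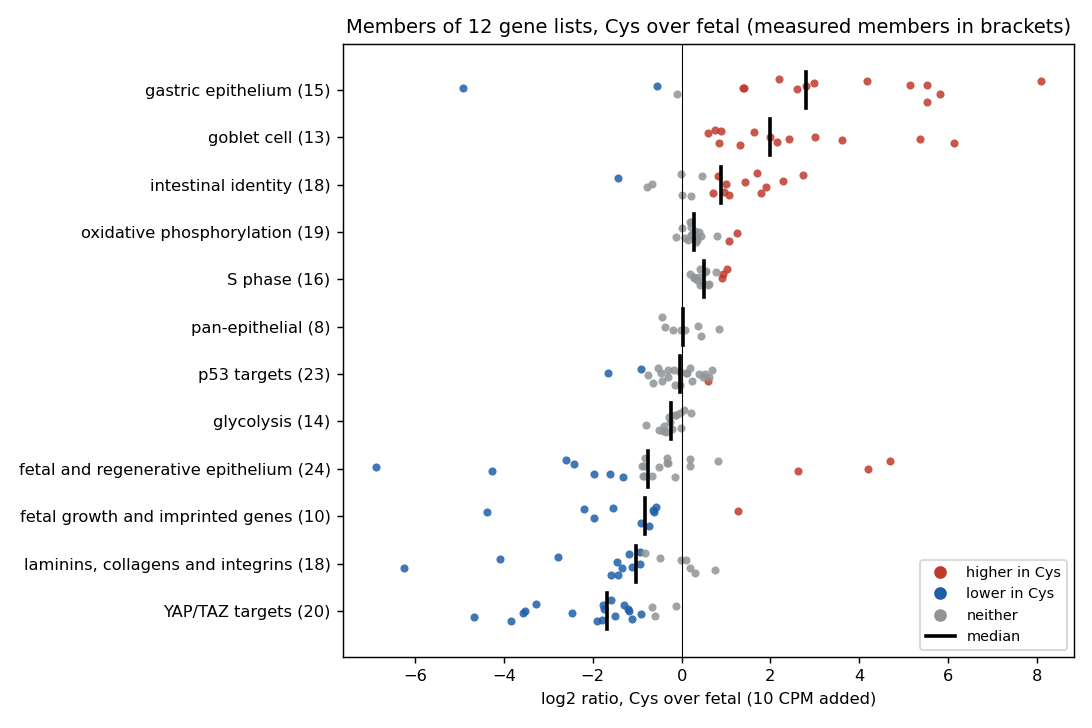
Members of 12 gene lists by their log2 ratio of Cys over fetal (horizontal axis, 10 CPM added), coloured by whether they were called; the bar is the list's median. Gastric and goblet lists lie to the right, with medians of 2.80 and 2.0, and YAP/TAZ targets lie to the left, with none of 20 higher in Cys and a median of -1.67.

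The genes furthest below fetal in Cys, named for the size of that difference, included several that encode secreted proteins. Wfdc2, a whey acidic protein family gene of embryonic and glandular epithelia, had 3 UMIs in Cys and 10432 UMIs in fetal, or 0.685 CPM and 1779 CPM, and none in Bud, het or WT. The ratio corresponds to a level 2598-fold lower in Cys, with an interval of 888.6 to 12598. Igfbp7, a secreted binding protein of insulin-like growth factors, had no UMI in Cys and was at 1263 CPM in fetal, and Fn1, the matrix protein fibronectin, had no UMI in Cys and was at 756 CPM in fetal. Neither exceeded 0.683 CPM in an adult library. The neutrophil-attracting chemokines Ppbp and Cxcl5 were at 0 and 17.6 CPM in Cys and at 946 and 1087 CPM in fetal. Igfbp4 was at 2.28 CPM in Cys and 347 CPM in fetal, but it was also present in the adult libraries, at 86.7 CPM in Bud, 336 CPM in het and 105 CPM in WT.

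Most YAP and TAZ targets were lower in Cys than in fetal. Of 20 measured, none was higher in Cys, 17 were lower and 3 (Crim1, Ctgf and Dock5) were neither, with a median log2 ratio of -1.67, or -2.34 with genes at 0 placed at the floor. Among all measured genes 8.86% were higher in Cys and 18.3% were lower. Ctgf, a matricellular protein and a widely used YAP target, was nearly level, at 727 CPM in Cys and 796 CPM in fetal. Ankrd1, a nuclear ankyrin repeat protein and the other standard target, was at 30.6 CPM in Cys and 1025 CPM in fetal, against at most 0.910 CPM in the adult libraries, and 42.5% of its Cys UMIs came from 1 cell. Cyr61, a relative of Ctgf, was at 22.6 CPM in Cys and 367 CPM in fetal, against 28.3 CPM in Bud, 47.5 CPM in het and 19.8 CPM in WT, so Cys was within the adult range. Axl, a receptor tyrosine kinase, had no UMI in Cys and was at 132 CPM in fetal. With Cys set to a floor of 3 UMIs, Axl was 193-fold lower in Cys, and the exact interval starts at 156.8-fold. Set against het, 9 of 16 targets were higher in Cys and 2 (Cyr61 and Gadd45a) were lower, while 18 of 20 were higher in fetal than in WT. The shares over all genes were 11.9% higher and 13.5% lower in Cys against het, and 21.0% higher in fetal against WT. Set against WT, 8 of 16 were higher in Cys and 2 (Arhgef17 and Gadd45a) were lower. Myof, a membrane repair protein gene, was among those raised in both, with 89.7 CPM in Cys and 537.5 CPM in fetal, against 4.05 CPM in Bud, 1.59 CPM in het and 1.74 CPM in WT.

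The promoters of Ankrd1 and Axl are shown because both targets were far lower in Cys than in fetal and hold the motif searched (RefSeq, GRCm38.p6, the 250 bases before the start, 5′ to 3′ on the gene's strand). Ankrd1 is the window chr19:36119845-36120094 and Axl the window chr7:25788734-25788983, both on the minus strand. Capitals mark the letters GGAATG, the core of the TEAD motif, searched on both strands.
Ankrd1: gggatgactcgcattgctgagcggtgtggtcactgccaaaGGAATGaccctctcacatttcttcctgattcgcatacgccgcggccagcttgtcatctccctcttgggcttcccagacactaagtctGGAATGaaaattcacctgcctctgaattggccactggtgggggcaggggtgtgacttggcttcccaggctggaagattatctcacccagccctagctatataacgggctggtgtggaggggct
Axl: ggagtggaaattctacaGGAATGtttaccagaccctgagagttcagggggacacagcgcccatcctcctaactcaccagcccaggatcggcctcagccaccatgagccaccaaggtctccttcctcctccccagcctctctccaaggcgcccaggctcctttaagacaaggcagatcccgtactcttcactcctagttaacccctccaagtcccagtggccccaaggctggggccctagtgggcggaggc
Of the 22 targets, 15 had a promoter in the table, and 6 of them held these letters (40.0%), against 12.6% of all promoters. Cyr61, Amotl2, Crim1 and Ptpn14 were the others, of which Crim1 was among the 3 targets that did not differ between Cys and fetal.

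Basement membrane and adhesion genes followed the same split. Of 18 measured laminin, collagen and integrin genes, none was higher in Cys, 11 were lower and 7 were neither, with a median log2 ratio of -1.03, and 11 of 16 were higher in both libraries than in their adult ones. Among all genes 8.86% were higher in Cys than in fetal, 18.3% were lower, and 797 of 10764 were higher in both adult comparisons. Lama5, the laminin chain of epithelial basement membranes, was at 143 CPM in Cys and 404 CPM in fetal, against 30.7 CPM in Bud, 27.3 CPM in het and 39.2 CPM in WT. Lamb1 and Lama3 behaved differently: Lamb1 was at 1.37 CPM in Cys and 182 CPM in fetal, and Lama3 at 7.76 CPM in Cys and 112 CPM in fetal, with under 1 CPM of each in every adult library. Lama3 was among the 11 higher in both, at a low level in Cys, whereas Lamb1 and Fn1 were near or at 0 in Cys.

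Most measured genes of fetal growth were lower in Cys than in fetal. Of 10 measured, 9 were lower in Cys and 1, the receptor gene Igf2r, was higher (208 CPM in Cys and 80.3 CPM in fetal). Hmga2, a chromatin protein of embryonic tissues, was at 2.05 CPM in Cys and 243 CPM in fetal, against 72.4 CPM in Bud, 56.2 CPM in het and 97.1 CPM in WT, so Cys was below all adult libraries. Igf2bp1, an RNA-binding protein of fetal tissues, was at 5.25 CPM in Cys and 59.8 CPM in fetal, with at most 0.228 CPM in the adult libraries. Igf2 itself had 2 UMIs in Cys and 8 UMIs in fetal and was not measured, and Igf2bp3 was at 0.685 CPM in Cys and 6.65 CPM in fetal, against 65.9 CPM in WT. The markers of other cells that a fetal culture could hold were low: the mesenchymal list summed to 2.28 CPM in Cys and 49.3 CPM in fetal, of which 43.0 CPM was Twist1, and the immune list summed to 10.0 CPM in Cys and 27.8 CPM in fetal.

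Genes that moved in opposite directions from the adult state are a small group. Agr2, Cftr, Krt23, Gata5 and the kidney and thyroid factor Pax8 were among the 60 higher in Cys against het and lower in fetal against WT. Pax8 was at 115 CPM in Cys and 1.53 CPM in fetal, against 12.2 CPM in Bud, 7.74 CPM in het and 11.7 CPM in WT. Mmp7, a matrix protease of Paneth cells and of injured epithelia, was among the 96 in the other direction, with 28.8 CPM in Cys and 660 CPM in fetal, against 39.3 CPM in Bud, 72.6 CPM in het and 21.8 CPM in WT. The remaining Paneth markers were not measured between Cys and fetal.

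Cell by cell, Clu and Tff1 were each found in most Cys cells. After thinning to 3000 UMIs, which 314 Cys cells and 369 fetal cells reached, Clu had a UMI in 99.7% of Cys cells (98.2 to 100) and 99.2% of fetal cells (97.6 to 99.8), and in 1.06% to 3.98% of cells of the adult libraries. Tff1 had a UMI in 93.3% of Cys cells and 0.813% of fetal cells, and both genes were found together in 293 of 314 Cys cells. Clu had a UMI in 313 of these cells, so the joint count is the Tff1 count and shows no link between the 2 genes. Gkn1 had a UMI in 71.3% of Cys cells and in 0 of 369 fetal cells, where the floor of 3 counts gives a limit of 0.813% at this depth and the exact interval ends at 0.995%. Tff2 was less even, with a UMI in 32.5% of Cys cells. In the fetal plate, Spp1 and Wfdc2 were found together in 88.9% of cells, against 0 of 314 Cys cells, where the same floor gives a limit of 0.955%. Before thinning, Tff1 had a UMI in 98.6% of Cys cells and 3.50% of fetal cells, and Spp1 in 1.68% of Cys cells and 98.1% of fetal cells.

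The summed level of each list per cell gives the spread. The fetal and regenerative list had a median of 18330 CPM per Cys cell and 24000 CPM per fetal cell, against 2333 CPM in Bud, 1000 CPM in het and 1333 CPM in WT. Inside the range from the 5th to the 95th percentile of fetal cells lay 62.7% of Cys cells, with 36.6% below it, whereas at most 0.382% of the cells of an adult library lay inside it. For p53 targets 92.4% of Cys cells lay inside the fetal range, against 37.2% to 42.6% of adult cells. For YAP/TAZ targets 69.1% of Cys cells lay inside and 30.9% below, against 12.4% to 17.4% of adult cells inside. For laminins, collagens and integrins 48.7% lay inside and 51.3% below. For the gastric list 90.1% of Cys cells lay above the fetal range and 9.87% inside it, and for intestinal identity 52.9% lay above and 47.1% inside. Within the Cys plate, gastric and goblet sums had a Spearman correlation of 0.382 over 314 cells of equal depth, a description of cells that share 1 plate, with medians of 16 and 4 UMIs per cell. Gastric sums and those of the fetal and regenerative list had a correlation of 0.00267 in the same cells, with medians of 16 and 55 UMIs.

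**Figure D4:**
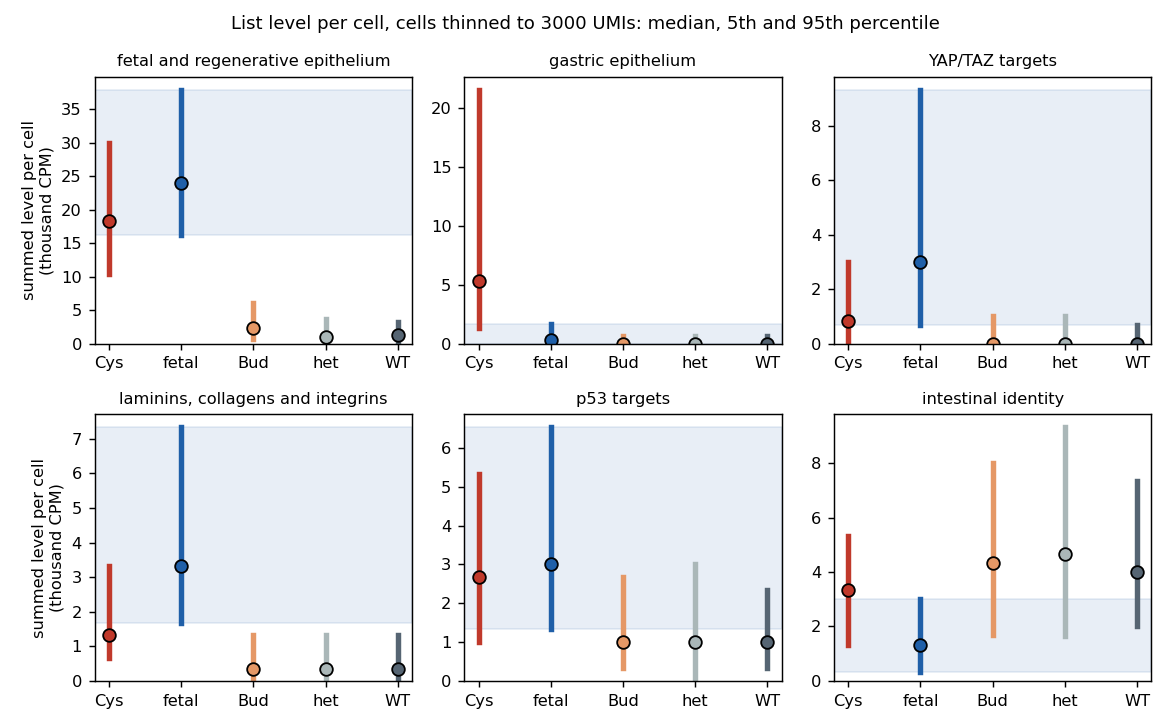
Summed level of 6 gene lists per cell, with the axis in units of 1000 CPM, after thinning every cell to 3000 UMIs: the dot is the median and the line runs from the 5th to the 95th percentile of the cells of 1 plate, with the fetal range shaded. For the fetal and regenerative list the median Cys cell lies inside the shaded band at 18330 CPM, and for the gastric list 90.1% of Cys cells lie above it.

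Whole profiles placed Cys between the fetal and the adult libraries. Over 5338 genes with at least 50 CPM in any library, the Pearson correlation of log2 levels was 0.751 between Cys and fetal and 0.709 to 0.771 between Cys and the adult libraries, while fetal had 0.527 to 0.571 with the adult libraries and these had 0.944 to 0.964 among themselves. Each cell was then assigned to the other library whose summed profile it resembled most by Spearman correlation. Of 357 Cys cells, 111 were nearest to fetal (31.1%, 26.3 to 36.2), 237 to Bud (66.4%, 61.2 to 71.3), 9 to het and 0 to WT. The Cys cells nearest to fetal had a median of 9710 UMIs, and those nearest to Bud had 10643 UMIs. All 371 fetal cells were nearest to Cys. Cells of the adult libraries were nearest to fetal in no case, and nearest to Cys in 2 of 351 het cells, 2 of 318 Bud cells and 0 of 302 WT cells.

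Few genes of the housekeeping lists were called, where 8.86% of all genes were higher in Cys and 18.3% were lower. None of 14 glycolysis genes was higher or lower, with a median log2 ratio of -0.24. Of 19 oxidative phosphorylation genes, 2 (Uqcrh and Sdhb) were higher in Cys, near the share over all genes. Among 16 genes of S phase 3 (Rrm2, Mcm5 and Cdt1) were higher in Cys and 13 were neither, and among 16 genes of G2 and M phase 1 (Cdc20) was higher and 15 were neither. The S phase count ran from 1 to 9 across the alternatives. Rrm2 and Mcm5 lay at the limit of 2-fold and were not called with equal weight per cell or in the authors' corrected table. Mki67, the proliferation marker, was at 199.9 CPM in Cys and 132 CPM in fetal, against 195 to 264 CPM in the adult libraries, and had a UMI in 29.0% of Cys cells and 20.3% of fetal cells after thinning (48.5% and 42.9% before). The unfolded protein response had 1 of 16 higher (Sdf2l1) and 1 lower (Ddit3).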

How the data were processed

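The authors deposited, for each library, a table of UMI counts per gene and well (raw counts, whole numbers, no normalization), which is the basis of every value, and a transcript table of estimated counts corrected for UMI saturation, which was rounded to whole numbers and used as an alternative only. Their table of reads was not used. The submitters' processing notes name the build GRCm38 and the tools Seurat 4.1.0, featureCounts 1.5.2 and STAR 2.6.1, without order or role. No source used here says how strand or multiply mapped reads were handled, so paralogs (Ly6, Gkn and annexin families) and overlapping genes are uncertain. Gene symbols are those of the deposited tables, some of them older names (Ctgf, Cyr61, Ptrf, Dpcr1).

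Wells with 1000 to 100000 UMIs after removal of spike-ins were kept, with no doublet caller, since wells held sorted single cells. The tables held no mitochondrial genes. UMIs were summed over the cells of a library and divided by the library total (CPM). Ratios have exact conditional binomial 95% intervals, levels exact Poisson intervals and shares exact Clopper-Pearson intervals, all for counting error only; at 0 UMIs a floor of 3 counts was used. A call needed a 2-fold ratio, since the variation between plates is unknown, with at least 20 UMIs over both libraries. Log2 ratios with 10 CPM added understate differences of low genes. Cells were thinned to 3000 UMIs for shares and list levels, which left out 43 Cys cells and 2 fetal cells. The calling step was tested on simulated data.

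Named genes were the 15 highest and 15 lowest log2 ratios of Cys over fetal with a UMI in at least 10% of cells of the higher library, the 15 genes most raised and 10 most lowered jointly in Cys against het and fetal against WT within 2-fold of each other, up to 4 genes of each of 37 lists, and a fixed set of markers. The list members described by name beyond these, and Pax8, were chosen after their values were seen. Some results are not reported here. The members and lists were chosen with earlier results of these data known. Gene coordinates are from GENCODE M21 (GRCm38) and promoters from RefSeq. Python 3.11.15, numpy 2.4.6, pandas 2.3.3, scipy 1.17.1, R 4.3.3 and edgeR 4.0.16 (TMM factors only) were used.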

Additional observations from a re-analysis of the deposited data

How the results depend on the processing

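On the counts, 10 alternatives (UMI minimum, fold, TMM scaling, equal weight per cell, wells kept, Kcnq1ot1-rich wells, the authors' corrected transcript table, totals without Rn45s) and other choices of adult library, of genes or of correlation were tried. Of 90 counts and shares recomputed, 84 stayed within 1.5 times their value or within their interval. The 6 others came from the 1.5-fold limit: between Cys and fetal it gave 1788 higher and 3289 lower genes, between Cys and het 2046 higher and 2402 lower, and 1219 genes higher and 1217 lower in both adult comparisons. At 1.5-fold 14 of the 24 fetal and regenerative genes were lower in Cys. Over the 10 alternatives, 17 to 19 YAP/TAZ targets were lower and 12 or 13 gastric genes higher in Cys. Of the named genes measured, 125 kept their call throughout and 30 crossed a limit in at least 1 alternative; none reversed. Stk11 was no longer called under TMM scaling (log2 ratio -0.48) or with no upper limit on UMIs per well (-0.45). The share of Cys cells nearest to fetal was 28.9% to 34.2%. Thinning to 1000 UMIs moved 257 of 328 shares of cells out of their interval, as fewer UMIs per cell lower a share. At that depth the lower end of the fetal range was 0 for both YAP/TAZ and p53 targets. Inside it lay 100% and 99.2% of Cys cells, but also 99.7% to 100% of adult cells. These 2 ranges therefore do not separate the libraries at that depth. For the gastric list 25.8% of Cys cells lay inside, and for intestinal identity 81.2% lay inside and 18.8% above. At a minimum of 50 UMIs, 6 of the fetal growth genes were lower in Cys. No paired analysis was possible because each group is 1 library. Depth limits statements on genes at 0: 3 UMIs are 0.685 CPM in Cys and 0.511 CPM in fetal.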

Other observations

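Onecut2, a factor of the duodenum, was at 189 CPM in Cys and 788 CPM in fetal, against 179 to 328 CPM in the adult libraries. Cys thus lay in the adult range and fetal above it.

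Ligands of the EGF receptor split between the libraries. Areg, which encodes amphiregulin, was at 162 CPM in Cys and 65.3 CPM in fetal, and Btc was at 57.5 CPM in Cys and 24.0 CPM in fetal, whereas Hbegf was at 36.5 CPM in Cys and 168 CPM in fetal. All 3 were above het and WT in Cys. Targets of CREB and its CRTC co-activators, which LKB1 signalling restrains through the salt-inducible kinases, had 4 members higher in Cys (Areg, Nr4a1, Nr4a2 and Pde4d), 3 lower (Atf3, Dusp1 and Ppargc1a) and 5 that were neither, out of 12, beside 8.86% higher and 18.3% lower over all genes. Nr4a1 was at 53.2 CPM in Cys and 14.5 CPM in fetal, with 11.2% of the Cys UMIs in 1 cell. Immediate early and heat shock genes induced by dissociation had 6 of 12 members lower in Cys and none higher, Ier3 (166 CPM in Cys and 597 CPM in fetal) among them, and their part in the other differences was not tested. The interferon-induced membrane protein Ifitm3 was at 0.913 CPM in Cys and 1026 CPM in fetal, against 0.714 CPM in Bud, 0.683 CPM in het and 243 CPM in WT, so the adult libraries themselves differed. Of 12 epithelial defence genes measured, 7 were higher in Cys (Dmbt1, Duoxa2, Ltf, Lypd8, Pigr, S100a8 and Slpi), 4 were lower (Lcn2, Reg1, Reg3b and Reg3g) and 1 was neither, with a median log2 ratio of 0.77. Ltf, the iron-binding protein lactoferrin, was at 568.5 CPM in Cys and 216 CPM in fetal, against at most 2.50 CPM in the adult libraries. Among the lower ones, Reg3b and Reg1 had no UMI in Cys and were at 150 and 221 CPM in fetal, with 10.3% and 9.03% of the fetal UMIs in 1 cell, and Lcn2 was at 0.913 CPM in Cys and 173 CPM in fetal.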
